A study of Arabidopsis thaliana with 6 samples.

Results

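The 30 genes described here are protein-coding genes of the Arabidopsis thaliana plastid genome that serve gene expression and housekeeping rather than photosynthesis. They were chosen by gene identity, as the plastid genes for RNA polymerase subunits (rpo), ribosomal proteins (rps and rpl), the maturase matK, the protease subunit clpP1, the carboxylase subunit accD and the reading frames ycf1 and ycf2. They are 30 of the 33557 genes in the authors' table, and 30 of its 133 plastid-encoded genes. The authors marked all 30 as tested, so no member was lost to a filter on low values. Among plastid-encoded genes, 4 others, which include rrn16S and rrn23S, carried the mark HIDATA (too many fragments at the locus) and were left out.

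Poly(A) RNA was sequenced from whole seedlings of the cbe1 mutant and of the wild-type accession Col0, with 3 libraries per genotype that the labels call biological replicates. Both genotypes were sampled at an age of 7 days, after growth on MS medium that held 1% sucrose, in days of 16 hours light and 8 hours dark. No source used here gives the kind of cbe1 mutation. CBE1 belongs to the plant partners of eIF4E, the factor that recognises the mRNA cap. The table gives 1 FPKM value per gene and genotype (fragments scaled to transcript length and library size), so there is no value per library, no spread between replicates, and depth is unknown. CBE1 itself (AT4G01290, matched from knowledge of the study) had 4.48 FPKM in cbe1, against 13.8 FPKM in Col0.

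Plastids keep a small genome of bacterial origin. Its genes are read by a bacterial-type RNA polymerase, whose core subunits are encoded by rpoA, rpoB, rpoC1 and rpoC2, and by a phage-type polymerase encoded in the nucleus. The rpo genes themselves, accD and ycf2 are known as genes read largely by the nuclear-encoded enzyme, whereas most photosynthesis genes depend on the bacterial-type one. Many plastid genes lie in clusters that are transcribed together and then cut into shorter RNAs. In plastids a poly(A) tail marks RNA for degradation, so a level measured in a poly(A) library is not a level of total plastid transcript. In whole seedlings, fewer green cells and less plastid RNA per cell cannot be told apart.

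A gene was called when its q-value in the authors' deposited table was below 0.05. Of the 30 genes, 3 were called higher in cbe1 (rps3, rpl22 and rpl14) and 2 lower (rpoC2 and ycf2). Among all 22303 tested genes, 3.31% were called higher and 1.63% lower. The same 5 members were called at a q-value threshold of 0.01, where 1.59% of all tested genes were called higher and 0.928% lower, and with an absolute log2 fold change of at least 1 added, where 1.08% were higher and 0.655% lower. The median log2 fold change of the 30 genes, cbe1 over Col0, was −0.05, with 14 above 0 and 16 below. Over all tested genes with a value above 0 in both genotypes the median was 0.18, and over those with a mean of at least 1 FPKM it was 0.17. The 5 calls thus stood at both ends of a list whose middle lay slightly below that of all genes.

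The sequence around the starts of the called genes is given because the calls other than ycf2 fall inside shared transcription units. The rpl22 and rps3 reading frames overlap by 16 bases (chloroplast:83467-83482, minus strand), and the authors' table assigns both genes to 1 shared locus (82826 to 83949). The shared bases are in capitals below, with 12 bases on either side; they open with the start codon of rps3 and close with the stop codon of rpl22. All sequence is from RefSeq, assembly TAIR10.1, whose plastid coordinates were identical for 118 of the 133 plastid-encoded genes.
rpl22-rps3 overlap: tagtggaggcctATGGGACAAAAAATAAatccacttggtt

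For the 5 called genes the window holds 250 bases before the start codon and the first 50 coding bases, 5′ to 3′ on the coding strand. Capitals mark TTGACA and TATAAT, the promoter boxes of bacterial-type polymerases, searched on both strands and found with no overlap between them in these windows. The windows are chloroplast:20019-20318 (minus) for rpoC2, chloroplast:86224-86523 (plus) for ycf2, chloroplast:83433-83732 (minus) for rps3, chloroplast:81015-81314 (minus) for rpl14 and chloroplast:83900-84199 (minus) for rpl22.
rpoC2: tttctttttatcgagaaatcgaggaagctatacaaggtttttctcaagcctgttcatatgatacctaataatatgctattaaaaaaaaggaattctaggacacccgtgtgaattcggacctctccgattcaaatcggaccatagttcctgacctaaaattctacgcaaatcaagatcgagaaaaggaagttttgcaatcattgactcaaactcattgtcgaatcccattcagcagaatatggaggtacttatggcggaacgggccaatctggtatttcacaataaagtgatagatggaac
ycf2: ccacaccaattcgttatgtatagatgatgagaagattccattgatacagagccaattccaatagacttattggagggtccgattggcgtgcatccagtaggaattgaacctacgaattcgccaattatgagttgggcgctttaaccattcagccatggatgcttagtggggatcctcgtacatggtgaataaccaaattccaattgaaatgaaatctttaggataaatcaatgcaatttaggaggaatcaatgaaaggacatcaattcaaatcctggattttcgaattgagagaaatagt
rps3: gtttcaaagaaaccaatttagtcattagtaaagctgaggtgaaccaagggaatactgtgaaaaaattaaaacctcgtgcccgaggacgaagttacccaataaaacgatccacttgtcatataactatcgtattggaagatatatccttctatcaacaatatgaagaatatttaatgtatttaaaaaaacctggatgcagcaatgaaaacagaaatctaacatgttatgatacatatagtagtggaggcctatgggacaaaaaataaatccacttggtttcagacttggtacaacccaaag
rpl14: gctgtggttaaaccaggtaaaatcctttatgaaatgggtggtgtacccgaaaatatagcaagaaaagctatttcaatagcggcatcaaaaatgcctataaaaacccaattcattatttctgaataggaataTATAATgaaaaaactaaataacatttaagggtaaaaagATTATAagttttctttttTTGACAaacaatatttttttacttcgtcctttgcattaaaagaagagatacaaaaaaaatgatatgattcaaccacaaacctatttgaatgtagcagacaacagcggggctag
rpl22: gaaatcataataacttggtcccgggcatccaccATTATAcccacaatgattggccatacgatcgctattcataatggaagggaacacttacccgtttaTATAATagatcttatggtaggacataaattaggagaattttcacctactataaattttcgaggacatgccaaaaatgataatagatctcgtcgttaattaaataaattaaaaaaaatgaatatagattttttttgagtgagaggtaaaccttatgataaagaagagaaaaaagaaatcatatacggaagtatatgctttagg

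The rpoC2 window takes in the end of rpoC1, the ycf2 window a tRNA gene, the rps3 window the end of rpl22, the rpl14 window the end of rpl16 and the rpl22 window part of rps19. Neither box was present in the windows of rps3, which was called higher, or of rpoC2 and ycf2, which were called lower. The rpl14 window held TTGACA 63 bases before the start codon and TATAAT on either strand further upstream, and the rpl22 window held TATAAT on either strand. Among the 30 genes, 5 windows held TTGACA (16.7%) and 11 held TATAAT (36.7%). Among 130 annotated plastid gene entries, which include these genes and tRNA genes, the shares were 21.5% and 38.5%. Among windows of the same length at the annotated gene starts of 27972 nuclear genes, which need not be start codons, they were 20.1% and 40.5%. The boxes were therefore about as frequent before these genes as in those comparison windows, and a match is not a mapped start of transcription.

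**Figure D1:**
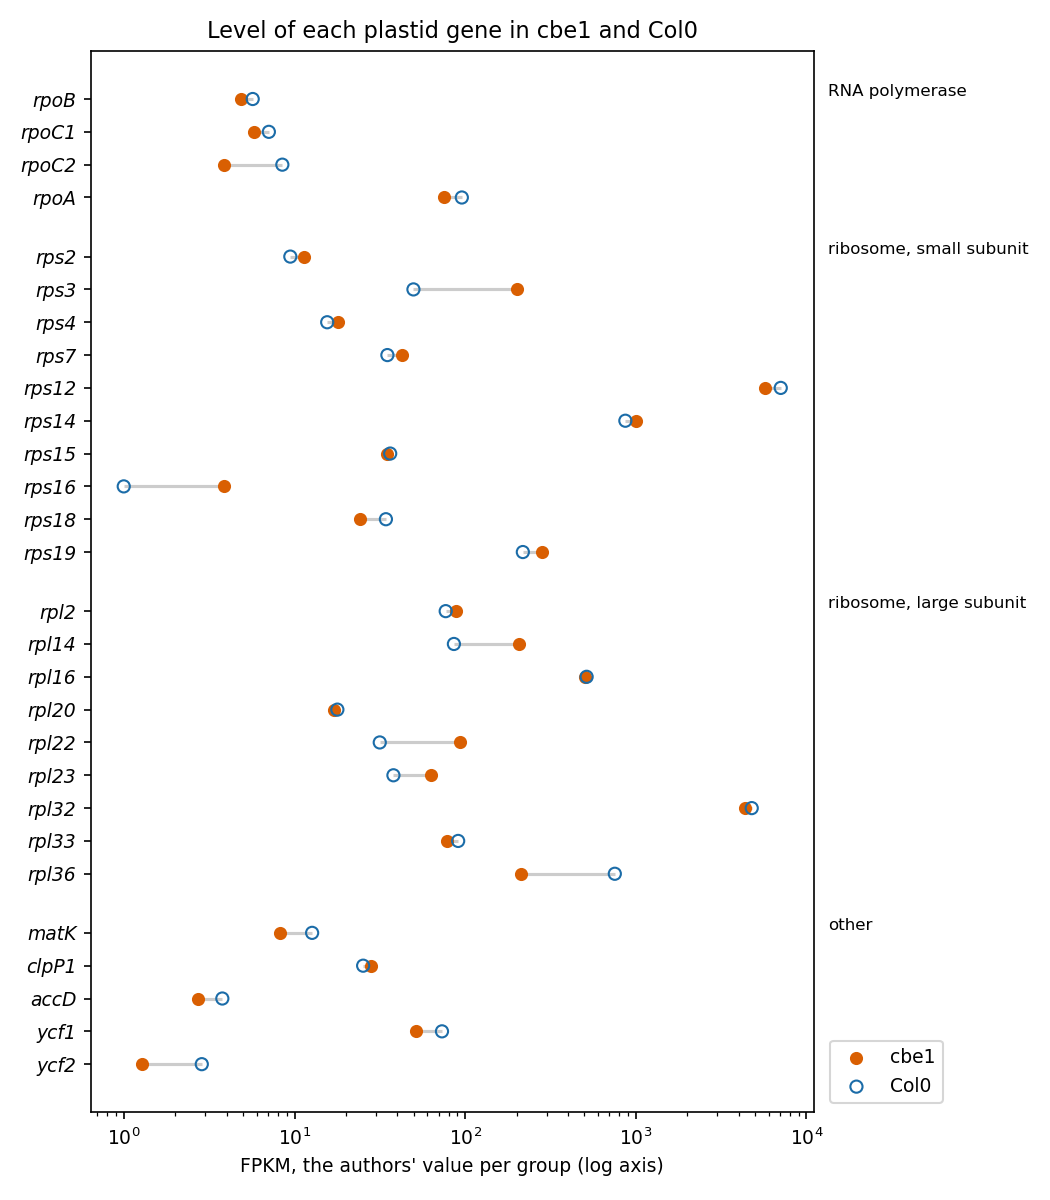
FPKM of 28 of the 30 plastid genes on a log axis, with cbe1 as filled and Col0 as open points, each the authors' value for 1 genotype. The gap between the points is widest for rps3, rps16 and rpl36, and the levels span 1.28 to 5693 FPKM in cbe1.

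Levels ran from 1.28 to 5693 FPKM in cbe1 and from 0.998 to 7066 FPKM in Col0. The median over the 30 genes was 47.1 FPKM in cbe1 and 35.7 FPKM in Col0. The highest values belonged to very short genes. The row for rps12 covers the first exon alone, 114 coding bases of a protein whose mRNA is joined by trans-splicing, and it had 5693 FPKM in cbe1 and 7066 FPKM in Col0. The rows for the remaining exons, which lie in the inverted repeat and belong to the same mRNA, had 99.6 and 137.7 FPKM in cbe1 and 96.1 and 119.6 FPKM in Col0. In Col0 the first exon thus stood 73.5 and 59.1 times above the rest of its own message. Across the 30 genes coding length and Col0 FPKM ran in opposite directions (Spearman's rho −0.58, a description over 30 genes that share libraries and normalisation), so levels of genes this short cannot be ranked against the others.

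The core subunits of the bacterial-type RNA polymerase all had lower values in cbe1, and 1 of the 4 was called. rpoC2 (ATCG00170), which encodes the β″ subunit, fell to 3.86 FPKM in cbe1, against 8.48 FPKM in Col0. On the log2 scale this was −1.14, and the authors' deposited table gives q = 4.26e-06. An error of 0.20 on the log2 scale is implied by the authors' test, as the log2 fold change divided by the test statistic, and errors given below are of this kind.

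The other core subunits differed by less. rpoB (ATCG00190), the β subunit, had 4.82 FPKM in cbe1 and 5.68 FPKM in Col0, a log2 fold change of −0.24 with an error of 0.20. rpoC1 (ATCG00180), the β′ subunit, had 5.79 FPKM in cbe1 and 7.07 FPKM in Col0 (log2 −0.29, error 0.22). rpoA (ATCG00740), the α subunit, had 74.99 FPKM in cbe1 and 95.5 FPKM in Col0 (log2 −0.35, error 0.19). Their q-values in the authors' deposited table were 0.627, 0.573 and 0.324, and none was called. The levels also split by position in the genome: rpoB, rpoC1 and rpoC2 lie side by side on the minus strand, while rpoA, which had the highest FPKM of the 4 in either genotype, closes the large ribosomal protein cluster.

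**Figure D2:**
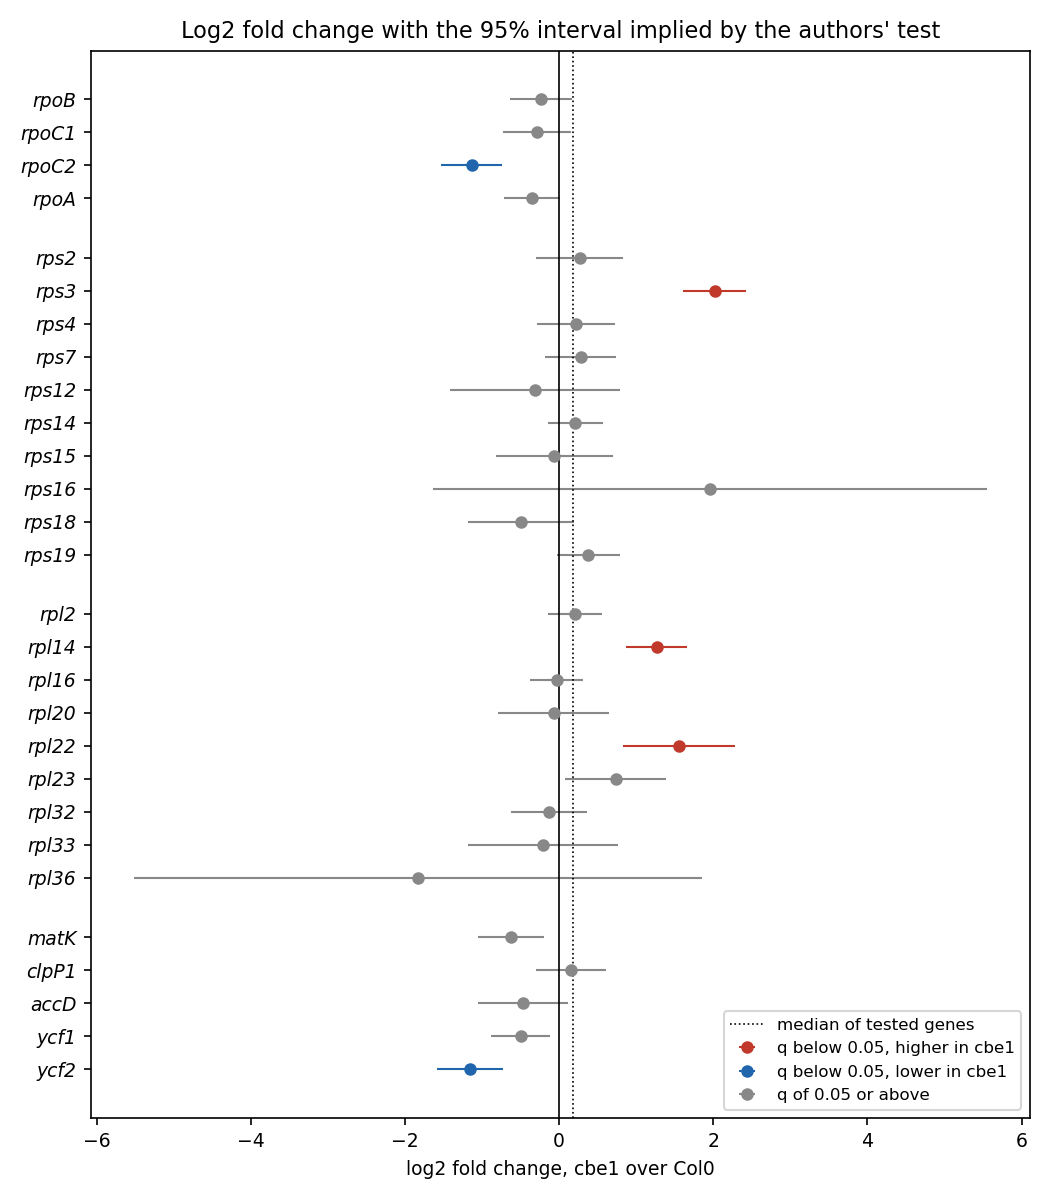
Log2 fold change of 28 of the 30 genes, cbe1 over Col0, with the 95% interval implied by the authors' test; red marks genes called higher, blue genes called lower, grey the rest, and the dotted line is the median of tested genes with a mean of at least 1 FPKM (0.17). The intervals of rps16 and rpl36 are the widest and both include 0.

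Of the 12 genes for proteins of the small ribosomal subunit, 1 was called higher and 0 lower, and 9 had log2 fold changes above 0 (median 0.27). rps3 (ATCG00800), whose protein sits near the path by which mRNA enters the small subunit in bacteria, rose to 201.4 FPKM in cbe1, against 49.7 FPKM in Col0. This 4.05-fold difference was the largest among the 30 genes (log2 2.02, error 0.21), and its q-value is listed as 0 in the authors' deposited table. The log2 fold change lay above that of 99.2% of all tested genes with values above 0.

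rps19, which lies in the same cluster as rps3, had 282.9 FPKM in cbe1 and 217.7 FPKM in Col0. Its log2 fold change of 0.38 was not called, with q = 0.351 in the authors' deposited table.

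Small subunit genes elsewhere in the genome lay on both sides of the median of all genes, and rps2, rps4, rps7 and rps14 lay closest to it. rps2 had 11.3 FPKM in cbe1 and 9.45 FPKM in Col0, and rps4, an early-binding protein of subunit assembly in bacteria, had 18.1 and 15.5 FPKM in cbe1 and Col0. rps7, another early-binding protein, had 42.5 FPKM in cbe1 and 35.0 FPKM in Col0, and rps14 had 1002 FPKM in cbe1 and 868.2 FPKM in Col0. Their log2 fold changes lay between 0.21 and 0.28. rps15 (34.8 FPKM in cbe1, 36.3 FPKM in Col0), rps18 (24.3 FPKM in cbe1, 34.3 FPKM in Col0) and the first exon of rps12 had log2 fold changes of −0.06, −0.50 and −0.31. The error for the first exon of rps12 was 0.56, and the rows for its remaining exons had log2 fold changes of 0.05 and 0.20. None of these 7 genes was called.

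rps16, at low levels in both genotypes, had a large ratio with a wide error. It had 3.88 FPKM in cbe1 and 0.998 FPKM in Col0, a 3.89-fold difference close to that of rps3. The error of its log2 fold change was 1.83, and the implied 95% interval ran from −1.63 to 5.55. The authors' deposited table gives q = 0.660, and rps16 was not called.

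Of the 9 genes for proteins of the large ribosomal subunit, 2 were called higher and 0 lower, and the median log2 fold change was −0.03. rpl22 (ATCG00810), whose protein lines the exit tunnel of the large subunit in bacteria, rose to 92.7 FPKM in cbe1, against 31.6 FPKM in Col0 (log2 1.55, error 0.37, q = 0.00192 in the authors' deposited table). rpl14 (ATCG00780), whose protein lies at the interface with the small subunit in bacteria, rose to 206.5 FPKM in cbe1, against 85.9 FPKM in Col0 (log2 1.27, error 0.20, q = 1.59e-07 in the authors' deposited table). rpl22 and rps3 share a locus, so the split of fragments between these neighbours was the authors' estimate. rpl14 is alone on its locus, and with the genes that share a locus left out it was the remaining higher call.

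rpl23, which opens the cluster and whose protein sits at the mouth of the exit tunnel, had 63.1 FPKM in cbe1 and 38.0 FPKM in Col0 (log2 0.73, unadjusted p = 0.0279 and q = 0.220 in the authors' deposited table). rpl2, a protein near the peptidyl transferase centre in bacteria, had 88.8 FPKM in cbe1 and 76.9 FPKM in Col0 (log2 0.21). rpl16 had 502.8 FPKM in cbe1 and 514.8 FPKM in Col0 (log2 −0.03, error 0.18). With an implied 95% interval from −0.38 to 0.31, a change in rpl16 as large as that of its neighbours rps3 or rpl14 lies outside the error of the test.

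Large subunit genes outside the cluster were not called. rpl20 had 17.0 FPKM in cbe1 and 17.8 FPKM in Col0, rpl33 had 78.5 FPKM in cbe1 and 90.9 FPKM in Col0, and rpl32 had 4371 FPKM in cbe1 and 4777 FPKM in Col0. Their log2 fold changes were −0.07, −0.21 and −0.13. Inside the cluster, rpl36 was not called either. rpl36, with 114 coding bases as short as the first exon of rps12, had 211.4 FPKM in cbe1 and 753.0 FPKM in Col0. Its log2 fold change of −1.83 was the lowest among the 30 genes, but its error was 1.88 and its interval ran from −5.52 to 1.86 (q = 0.700 in the authors' deposited table).

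All 3 higher calls lie in 1 cluster. From rpl23 to rpoA, 11 of the 30 genes follow each other on the minus strand, in an order kept from bacterial ribosomal protein operons. In transcription order, the genes given by name here had log2 fold changes of 0.73 for rpl23, 0.21 for rpl2, 0.38 for rps19, 1.55 for rpl22, 2.02 for rps3, −0.03 for rpl16, 1.27 for rpl14, −1.83 for rpl36 and −0.35 for rpoA. The called genes were thus not consecutive: rpl16 lies between rps3 and rpl14 and had nearly equal values in both genotypes. The rpl16 reading frame is split by an intron, and its level was above that of both neighbours in either genotype. The median over the 11 genes was 0.38, and 5 of them had an unadjusted p below 0.05 in the authors' deposited table. Of all 22303 tested genes, 3715 did.

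**Figure D3:**
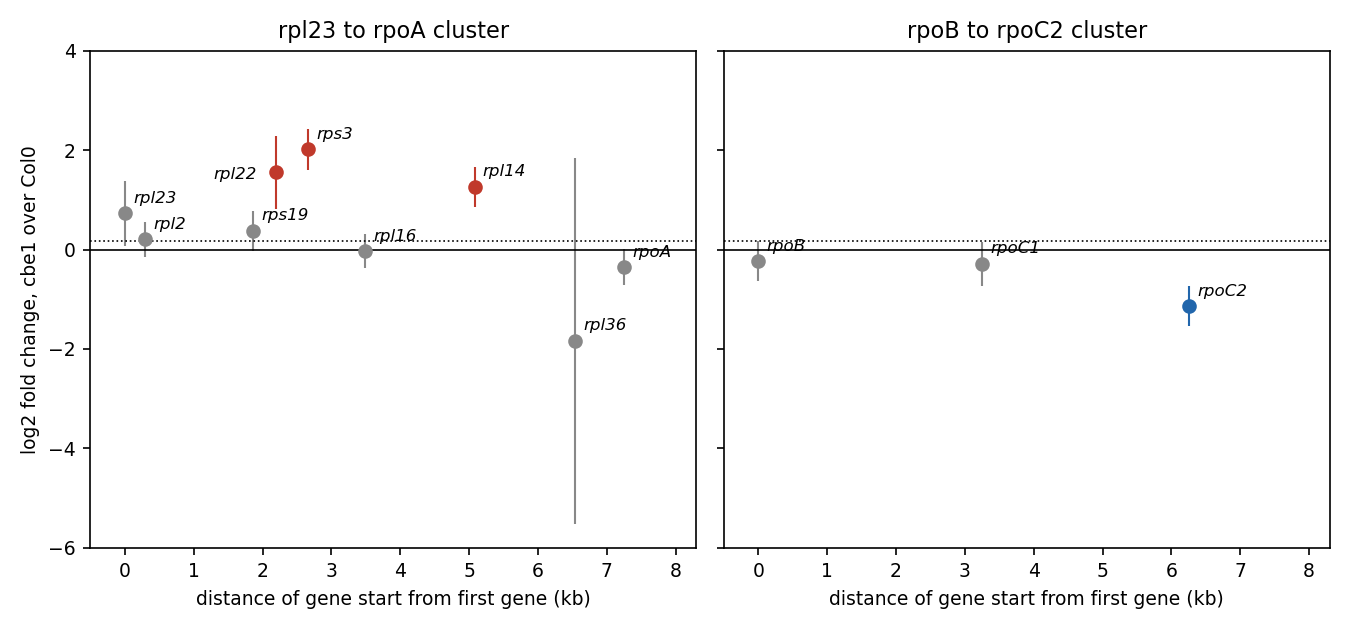
Log2 fold change, cbe1 over Col0, against the distance of each gene start from the first gene of its cluster, for the genes given by name in the rpl23 to rpoA cluster (left) and the rpoB to rpoC2 cluster (right). Red and blue mark genes called higher and lower, bars are 95% intervals implied by the authors' test, and the dotted line is the median of tested genes; rps3, rpl22 and rpl14 stand above rpl16 at −0.03.

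Of the genes in the other clusters, rpoC2 was the only member called. The order rpoB, rpoC1, rpoC2 gave log2 fold changes of −0.24, −0.29 and −1.14, with the call in the last gene, while rps2, which follows rpoC2 on the same strand, had 0.26. rps14 is transcribed with psaA and psaB, which encode the core of photosystem I. psaA rose to 83.6 FPKM in cbe1, against 40.3 FPKM in Col0 (log2 1.05), and psaB to 100.9 FPKM in cbe1, against 48.6 FPKM in Col0 (log2 1.06), whereas rps14 had a log2 fold change of 0.21 with an error of 0.18 and was not called. In the unit of clpP1, the first exon of rps12 and rpl20, the log2 fold changes were 0.15, −0.31 and −0.07, and in the pair of rpl33 and rps18 they were −0.21 and −0.50. The differences between neighbours were not tested, since the table holds no value per library.

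Outside the polymerase and the ribosome, 1 of 5 genes was called. ycf2 (ATCG00860) encodes a large membrane protein of the motor that drives protein import at the inner envelope. It fell to 1.28 FPKM in cbe1, against 2.86 FPKM in Col0 (log2 −1.16, error 0.22, q = 2.24e-05 in the authors' deposited table). On the log2(FPKM + 1) scale, which damps genes this low, its value was −0.76. ycf2 is present in 2 copies in the inverted repeat, identical over 6885 bases, and the second copy had the same rounded values. The copies cannot be told apart by reads and are 1 measurement.

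ycf1 (ATCG01130), which encodes the TIC214 subunit of the import channel, had 51.7 FPKM in cbe1 and 73.1 FPKM in Col0. Its log2 fold change was −0.50 with an error of 0.19 (unadjusted p = 0.0103 and q = 0.126 in the authors' deposited table). matK (ATCG00040), the maturase that assists splicing of several plastid introns, had 8.24 FPKM in cbe1 and 12.7 FPKM in Col0 (log2 −0.62, error 0.22; unadjusted p = 0.00442 and q = 0.0730 in the authors' deposited table). matK lies inside the intron of trnK and shares its locus with that tRNA gene, which had 453.9 FPKM in cbe1 and 3239 FPKM in Col0 and was not called. With the authors' statistic recentred on the median of tested genes, ycf1 and matK were also called lower (q = 0.017 and q = 0.01), and the 30 genes then held 3 higher and 4 lower calls, where 1.33% of all tested genes were higher and 2.99% lower.

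accD (ATCG00500), the plastid-encoded carboxyltransferase subunit of acetyl-CoA carboxylase and so of fatty acid synthesis, had 2.72 FPKM in cbe1 and 3.77 FPKM in Col0 (log2 −0.47, error 0.30). clpP1 (ATCG00670), the plastid-encoded subunit of the Clp protease core, had 28.1 FPKM in cbe1 and 25.2 FPKM in Col0 (log2 0.15, error 0.23). Neither was called (q = 0.442 and q = 0.814 in the authors' deposited table). The clpP1 value was −0.0203 once recentred on the median gene, so it has no direction beyond the scaling.

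The genes with long reading frames had log2 fold changes below 0, although the lowest of the 30 was that of rpl36, with 114 coding bases. All 7 members with at least 1000 coding bases (rpoB, rpoC1, rpoC2, matK, accD, ycf1 and ycf2) had log2 fold changes below 0, with a median of −0.50, whereas 9 of the 23 shorter ones did, with a median of 0.21. The length limit was set after the values were seen and has no test. The shortest gene inside it was accD, with 1467 coding bases and a log2 fold change of −0.47, and the longest ones outside it were rpoA, with 990 bases and −0.35, and rpl2, with 825 bases and 0.21. Among the plastid-encoded photosynthesis genes of that length, 2 of 13 were below 0 and the median was 0.50. Against the median of tested genes (0.17), 5 of these 13 lay below it, as did all 7 long members. Among the 30 genes the rank correlation of coding length with the log2 fold change was weak (Spearman's rho −0.28, a description over genes that share libraries), and longer runs of adenine on the coding strand had a rho of −0.36. For coding length among the 46 plastid-encoded photosynthesis genes the rho had the opposite sign, 0.34.

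**Figure D4:**
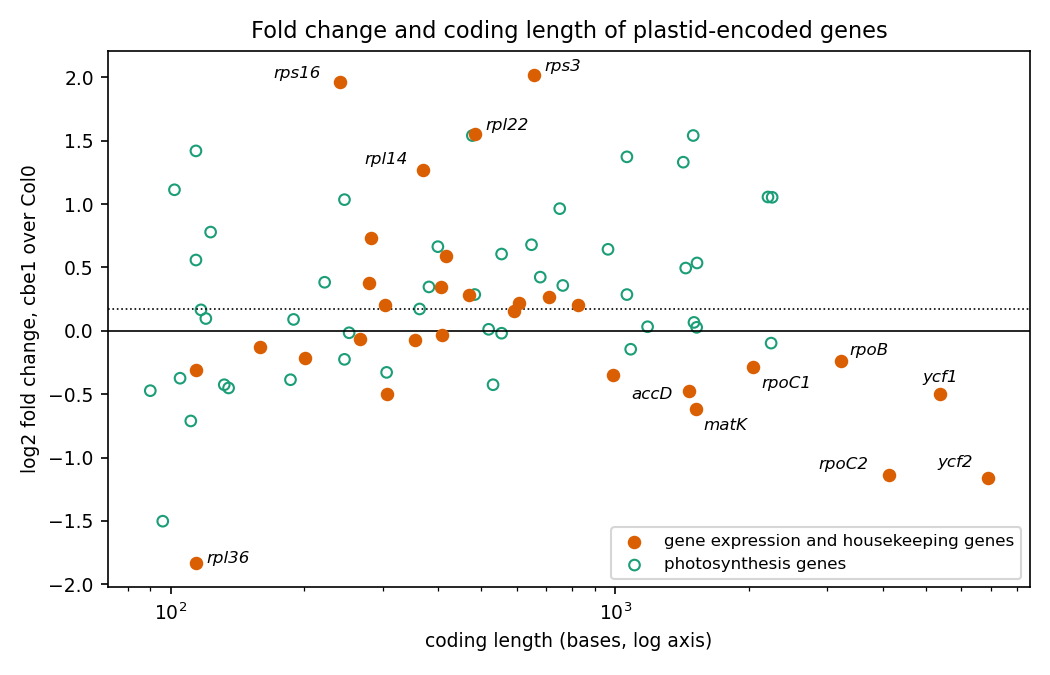
Log2 fold change, cbe1 over Col0, against coding length on a log axis, for the 30 gene expression and housekeeping genes (filled) and 46 plastid-encoded photosynthesis genes (open). The 7 filled points at 1000 bases or more are all below 0, and 11 of the 13 open points of that length are above it.

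Genes of the inverted repeat were measured in 2 copies. rpl23 and rps7 had the same rounded values at the copy in the list and at the other copy. rpl2 had 88.8 and 96.6 FPKM at its copies in cbe1 and 76.9 and 80.3 FPKM in Col0, with log2 fold changes of 0.21 and 0.27, although the copies are identical in sequence over 1507 bases. A partial copy of ycf1, which overlaps ndhF, had 9.86 FPKM in cbe1 and 13.5 FPKM in Col0 (log2 −0.45, not called), close to the log2 fold change of the full gene. This partial copy shares its locus with ndhF (log2 −0.10) and is not taken as a separate measurement of ycf1.

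Among the 46 plastid-encoded photosynthesis genes, 9 were called higher and 0 lower, with a median log2 fold change of 0.29, beside 3 higher and 2 lower and a median of −0.05 in the 30 genes. The calls with the largest change were atpB, the β subunit of ATP synthase, with 430.3 FPKM in cbe1 and 147.9 FPKM in Col0 (log2 1.54), ndhJ of the NDH complex (1.54) and psbD and psbC of photosystem II (1.37 and 1.33). With a q-value threshold of 0.01, and likewise with the recentred statistic, 7 of the 9 calls were left; psbD was lost under both (q = 0.0181 in the authors' deposited table, recentred q = 0.0581). The difference between the groups of genes was not tested, since genes of 1 genome that share transcripts are not replicates. Of 111 tested genes on the mitochondrial genome, 0 were called higher and 18 lower. The median over the 102 of them with values above 0 in both genotypes was −1.20.

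Nuclear genes for partners of these plastid proteins were described from lists of known complexes. The 38 nuclear genes for plastid ribosomal proteins had 0 calls by Cuffdiff in the authors' deposited table, where 12 had an unadjusted p under 0.05, and 0 with the recentred statistic. Their median log2 fold change of 0.22 was close to that of all tested genes, and their values lay between −0.38 and 0.52. The most abundant members, RPL29 with 660.5 FPKM in cbe1 and 652.2 FPKM in Col0 and RPL17 with 605.7 FPKM in cbe1 and 632.8 FPKM in Col0, had log2 fold changes of 0.02 and −0.06. The plastid-encoded ribosomal genes spread more widely, from −1.83 to 2.02.

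Of 20 nuclear genes for plastid transcription (sigma factors, phage-type polymerases and proteins attached to the bacterial-type polymerase), 5 were called higher and 0 lower, with a median of 0.46. PTAC3 rose to 17.2 FPKM in cbe1, against 8.37 FPKM in Col0 (log2 1.04, q = 5.12e-06 in the authors' deposited table). RPOTp, the phage-type polymerase of plastids, rose to 5.54 FPKM in cbe1, against 3.10 FPKM in Col0 (log2 0.84, q = 0.00620 in the authors' deposited table). PTAC2 and PTAC10, further proteins of the transcription complex, rose by 0.71 and 0.66 on the log2 scale. With the recentred statistic PTAC3 was the call that remained. The genes for the nuclear-encoded part of the transcription apparatus thus had log2 fold changes mostly above the median gene (16 of 20), and the 4 plastid-encoded core subunits had values below it.

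The listed nuclear partners of clpP1, accD, ycf1 and ycf2 had log2 fold changes above 0, as did 69.2% of all tested genes with values above 0 in both genotypes. Against the median of tested genes, 2 of the 9 import partners lay below it, TIC20-I (0.03) and TIC56 (0.10), which were named after their values were seen. Of 13 nuclear genes of the Clp protease 3 were called higher: the chaperones CLPC2 (34.1 FPKM in cbe1, 18.4 FPKM in Col0, log2 0.89) and CLPC1 (309.8 FPKM in cbe1, 180.3 FPKM in Col0, log2 0.78) and the core subunit CLPP3 (log2 0.55). Of 4 nuclear subunits of acetyl-CoA carboxylase, BCCP2, a biotin carrier, was called higher (log2 0.70), and CAC2, the biotin carboxylase, had 63.0 FPKM in cbe1 and 50.9 FPKM in Col0. Of 9 partners of ycf1 and ycf2 in the import channel and motor, 2 were called higher, FTSHI2 (log2 0.76) and FTSHI4 (log2 0.68). With the recentred statistic 1 call each was left for the Clp and import lists and 0 for the carboxylase.

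**Figure D5:**
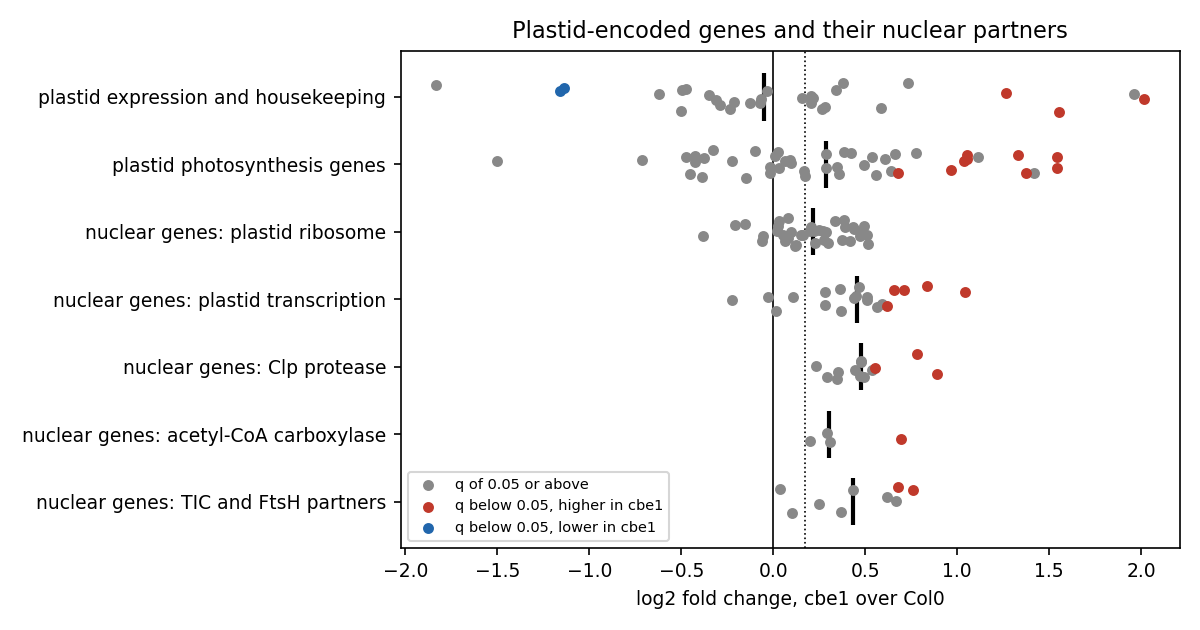
Log2 fold change, cbe1 over Col0, of the 30 plastid genes, the plastid photosynthesis genes and 5 lists of nuclear partner genes; each point is a gene, red and blue mark genes called higher and lower, the bar is the list's median and the dotted line the median of tested genes. The 30 plastid genes hold the only lower calls shown and spread from −1.83 to 2.02.

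Green and root tissue were present in both genotypes. Of 7 listed markers of green tissue, RBCS1A and LHCB1.2 carried the mark HIDATA (too many fragments at the locus) and were left out. In Col0 they were listed at 11658 and 12738 FPKM, above the 5 tested markers, and in cbe1 at 0, so they give no ratio. The 5 tested markers of green tissue had 2461 to 6890 FPKM in cbe1 and 1654 to 5964 FPKM in Col0, with a median log2 fold change of 0.21 and 0 calls (1 at an unadjusted p below 0.05 in the authors' deposited table). The small subunit gene of Rubisco RBCS3B had 6890 FPKM in cbe1 and 5964 FPKM in Col0, and LHCA1, a light-harvesting gene, had 5563 and 5615 FPKM in cbe1 and Col0. The 5 root markers ranged from 1.26 to 1583 FPKM in cbe1 and from 1.48 to 2440 FPKM in Col0, with PYK10, a root β-glucosidase, at both upper ends, CASP1 of the endodermis at 29.8 FPKM in cbe1 and 19.4 FPKM in Col0, and 0 calls (1 at an unadjusted p below 0.05 in the authors' deposited table). For comparison, 3715 of all 22303 tested genes had an unadjusted p below 0.05 in the authors' deposited table. The part of tissue make-up in the plastid values was not tested.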

How the data were processed

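Poly(A) RNA of 6 libraries, 3 of cbe1 and 3 of Col0 seedlings, was compared. TopHat, Cuffdiff and the TAIR10 build are named in the submitters' processing notes; no source used here gives their versions, strand use or scaling. The authors deposited 1 FPKM per gene and group. Each gene also has a deposited p-value, q-value and test statistic. A score, the test statistic deposited by the authors, has the opposite sign to the log2 fold change in all 21932 tested genes compared, and its two-sided normal p differs from the deposited p-value by at most 2.74e-06. The q-values match a Benjamini-Hochberg adjustment over 22303 tested genes within 2.46e-06. Log2 fold changes of cbe1 over Col0 were recomputed from FPKM with no pseudocount and differ from the deposited log2 column by at most 1.24e-05. No count, depth or replicate value is known, so p-values rest on the authors' error model, and no test on libraries was made.

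For the recentred statistic, the median log2 fold change of tested genes averaging 1 FPKM or more (0.17) was subtracted before division by the implied error, followed by Benjamini-Hochberg adjustment over all tested genes; the step was tested on simulated data. Genes, lists and clusters were chosen with earlier results of these data known, and clusters come from textbook knowledge. Named genes are the members, of which 2 are counted in the summaries but not reported here by name, and from each partner list the 4 called genes that changed most, and the most abundant ones where fewer than 2 were called; psaA and psaB were named after their values were seen. Positions count from 1; coding lengths come from the RefSeq annotation. Python 3.11.15, numpy 2.4.6, pandas 2.3.3, scipy 1.17.1 and matplotlib 3.10.9 were used.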

Additional observations from a re-analysis of the deposited data

How the results depend on the processing

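The 3 higher calls (rps3, rpl22, rpl14) and 2 lower calls (rpoC2, ycf2) among the 30 genes were kept at a q-value threshold of 0.01, with an absolute log2 fold change of at least 1 and with a mean of at least 1 FPKM. With genes alone on their locus 1 higher call was left, because rps3 and rpl22 share a locus, and with the recentred statistic 4 genes were called lower. The median of the 30 genes lay between −0.22 and −0.02 in all settings. The recentred statistic turned clpP1 to −0.0203. In the partner lists the higher calls became 2, 1 and 1 for plastid transcription, 1, 0 and 1 for Clp, 0, 0 and 0 for acetyl-CoA carboxylase and 1, 0 and 1 for the import partners, under the q-value threshold of 0.01, the minimum log2 fold change and the recentred statistic in that order. No paired analysis was possible because the table holds no value per library, and leaving out single libraries was not possible for the same reason. Depth is unknown, so no floor can be given for the low genes.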

Other observations

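The 50 plastid-encoded genes outside the lists above, mostly tRNA and rRNA genes, include 46 tested ones, of which 0 were called higher and 3 lower. These were a trnS gene of 88 bases (12639 FPKM in cbe1, 63603 FPKM in Col0, log2 −2.33; the authors' deposited table gives q = 2.06e-05) and the rows ATCG00970 and ATCG01160, each 121 bases long and in the inverted repeat, with 1026 FPKM in cbe1 and 5669 and 5764 FPKM in Col0. The last 2 are copies with 0 mismatches over 121 bases and are 1 measurement, so the lower calls come from 2 distinct sequences. The median log2 fold change of the 33 genes with values above 0 in both genotypes was −1.27, and their median implied error was 1.35. The median leaves out 12 tested genes listed at 0 in Col0 but above 0 in cbe1, and 1 listed at 0 in cbe1 but above 0 in Col0, none of which was called. Copies in the inverted repeat are counted separately in these numbers.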
